A study of Mus musculus with 7 samples.

Results

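The major urinary protein (Mup) genes encode small secreted lipocalins, a family of barrel-shaped carriers of hydrophobic molecules. Mouse liver makes them in large amounts, more in males than in females and under the control of growth hormone, and they leave the body in urine as carriers of pheromones. The genes sit side by side on chromosome 4 as recently copied repeats. CTCF is a zinc-finger protein that binds a directional DNA motif, and cohesin, of which Rad21 is a subunit, is the ring complex that extrudes chromatin loops and is stalled by CTCF. Sites with both factors (CAC sites) commonly anchor loops around genes, while cohesin-non-CTCF (CNC) sites are commonly found at enhancers and active promoters.

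The members were all genes of the mm9 annotation on chromosome 4 whose symbol is Mup followed by a number. The rule gave 21 genes of 21418 autosomal protein-coding genes, in this order along the chromosome: Mup4, Mup6, Mup7, Mup2, Mup8, Mup9, Mup1, Mup10 to Mup19, Mup5, Mup20, Mup3 and Mup21. All 21 were protein-coding, 20 lay on the minus strand and Mup6 lay on the plus strand. The cluster from the first to the last of them was chr4:59969676-61811897, a length of 1842.22 kb, with 20 annotated Mup pseudogenes and no other protein-coding gene. Flanks of 200 kb were added on each side. All 37 CTCF peaks and all 37 Rad21 peaks in the cluster and flanks were taken, out of 68667 and 68656 peaks in the complete lists.

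Both peak lists came from liver of 8-week-old female CD-1 mice (Crl:CD1(ICR)), with no treatment named in the labels. Chromatin of isolated, formaldehyde-crosslinked nuclei was immunoprecipitated with an antibody against CTCF, in 4 libraries, or against Rad21, in 3. The libraries of each antibody were pooled before peaks were called, so no value below has an error between mice, and the depth of the libraries is not given in the lists. Liver is a mixture of hepatocytes and other cells, and peak lists hold no marker genes with which to check the tissue. Peak strength is given as fold enrichment, the ratio of ChIP signal at the summit to the local background.

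Of the 11 CTCF peaks of the cluster, 7 lay on copies of 1 shared site. It is printed first because the same letters recurred in the cluster with and without a peak. Each line below is 60 bases of mm9, read 5′ to 3′ on the strand of the motif, and capitals mark the 20-base match to a CTCF motif learned from the strongest CTCF peaks of the odd-numbered autosomes.

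Downstream of Mup5, CTCF peak, chr4:61472382-61472441, minus strand: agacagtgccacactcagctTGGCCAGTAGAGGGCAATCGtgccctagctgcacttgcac
Upstream of Mup2, no peak, chr4:60187852-60187911, plus strand: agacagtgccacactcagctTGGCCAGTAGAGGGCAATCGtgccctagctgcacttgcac
Between Mup5 and Mup20, CTCF peak, chr4:61659562-61659621, minus strand: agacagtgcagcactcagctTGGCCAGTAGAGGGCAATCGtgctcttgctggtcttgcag
Between Mup5 and Mup20, no peak, chr4:61597591-61597650, minus strand: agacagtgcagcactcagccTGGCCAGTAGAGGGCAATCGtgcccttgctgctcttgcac
Upstream of Mup5, CTCF peak, chr4:61519367-61519426, minus strand: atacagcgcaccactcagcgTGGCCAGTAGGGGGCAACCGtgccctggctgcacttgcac
Downstream of Mup1, no peak, chr4:60487701-60487760, plus strand: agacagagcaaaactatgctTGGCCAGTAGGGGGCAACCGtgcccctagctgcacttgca
Upstream of Mup3, CTCF peak, chr4:61764565-61764624, minus strand: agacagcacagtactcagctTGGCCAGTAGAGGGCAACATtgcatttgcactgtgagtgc
Upstream of Mup21, CTCF peak, chr4:61838493-61838552, minus strand: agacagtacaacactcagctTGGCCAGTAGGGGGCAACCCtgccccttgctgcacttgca
Within the long Mup6 gene record, before its first transcript, no peak, chr4:59999889-59999948, plus strand: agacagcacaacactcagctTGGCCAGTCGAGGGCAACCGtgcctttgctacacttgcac

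The first pair of sites was identical in all 60 printed bases, and the identical run reached 72 bases. The copy downstream of Mup5 had a CTCF peak with a fold enrichment of 19.9, and the copy upstream of Mup2 had none. The authors kept only reads that mapped to 1 place, so a 50-base stretch (50-mer) was called unique here when its sequence occurs once in the mm9 genome. Of the 50-mers within 100 bp of the motif, 80.7% were unique at the copy with a peak and 36.3% at the copy without one. Of the 50-mers that span the whole motif, 25.8% were unique at both copies, and of the 100-mers nearby 100% and 85.1% were.

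Peaks of both factors were sparse in the cluster and gathered at its distal end. CTCF had 11 peaks in the cluster and 26 in the flanks, which gave 6.50 per Mb of known sequence (95% exact Poisson interval 3.24 to 11.6) against 65.0 per Mb (42.5 to 95.2). Rad21 had 13 and 24, which gave 7.68 per Mb (4.09 to 13.1) against 60.0 per Mb (38.4 to 89.3). Across the autosomes the densities were 27.99 per Mb for CTCF and 28.09 per Mb for Rad21. The flanks were thus denser in peaks than the autosomes for both factors. The ratio of cluster to flanks was 0.100 for CTCF (0.0446 to 0.209, two-sided exact binomial test, adjusted p = 3.81e-11) and 0.128 for Rad21 (0.0599 to 0.262, adjusted p = 1.46e-09). This test compares regions of 1 pooled list, not mice, and p-values were adjusted over the 2 factors.

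The cluster also differed from its flanks in how much of it a read can be placed in. Unique 50-mers made up 27.1% of the cluster, 96.6% of the left flank (before Mup4), 80.7% of the right flank (past Mup21) and 89.4% of sampled autosomal positions. Counted per Mb of unique 50-mers, CTCF had 24.0 peaks in the cluster and 73.4 in the flanks, a ratio of 0.327 (0.146 to 0.685, exact binomial test, adjusted p = 0.00270). Rad21 had 28.3 and 67.7, a ratio of 0.418 (0.196 to 0.855, exact binomial test, adjusted p = 0.0120). A stricter definition, which asked that a 50-mer have no other place on chromosome 4 with up to 2 mismatches, left 12.5% of the cluster. Under it the ratio was 0.674 for CTCF (0.301 to 1.41, exact test, adjusted p = 0.627) and 0.863 for Rad21 (0.404 to 1.76, adjusted p = 0.738). These ratios compare the cluster with peak-rich flanks, and no autosomal density per unique 50-mer was computed. Against the flanks, the deficit passed the test per known base and per exactly unique 50-mer. It did not pass per 50-mer unique with mismatches. Per exactly unique 50-mer it did not pass with flanks of 100 kb either, where the ratio was 0.396 for CTCF (exact test, adjusted p = 0.0877) and 0.669 for Rad21 (adjusted p = 0.446). The read length of these ChIP libraries is not given in the sources used here.

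**Figure D1:**
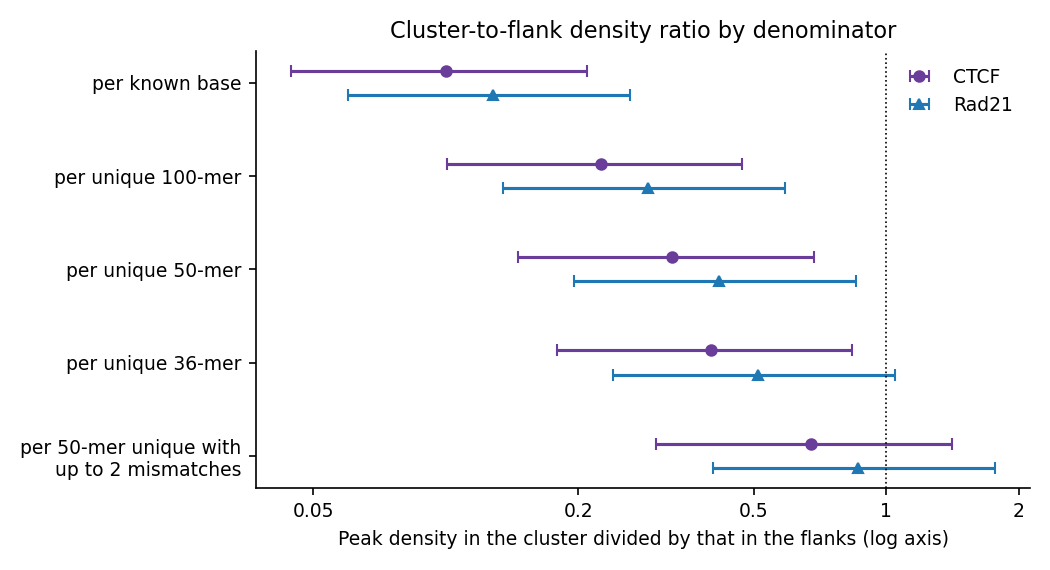
Ratio of peak density in the Mup cluster to that in the 200 kb flanks, on a log axis, for CTCF (circles) and Rad21 (triangles) under 5 denominators; bars are 95% intervals from counting peaks and the dotted line is a ratio of 1. The CTCF ratio runs from 0.100 per known base to 0.674 per 50-mer unique with up to 2 mismatches.

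Within the cluster, peaks were confined to the last 339.715 kb. The longest CTCF peak-free stretch ran from 59957526 to 61472182, a length of 1514.66 kb, and ranked 91 by length among 66991 autosomal gaps between CTCF peaks. For Rad21 the stretch was 1525.85 kb long and ranked 108 of 67209. Both stretches held the same 17 members, Mup4 to Mup19 in chromosome order, and 3 assembly gaps of 50000 bp each. Unique 50-mers were 17.0% of the CTCF stretch. The part of the cluster inside it still held 221081 unique 50-mers, where the flank density would give 16.2 CTCF peaks and 14.97 Rad21 peaks against 0 called for each. Only 43229 of them stayed unique with up to 2 mismatches, for which the flank density would give 3.34 CTCF and 3.09 Rad21 peaks. These expected counts use the flank rate. The flanks were denser in peaks than the autosomes, so the autosomal rate would give fewer. Past the stretch, where Mup5, Mup20, Mup3 and Mup21 lie, 70.0% of 50-mers were unique and all 11 CTCF and 13 Rad21 peaks of the cluster were called. This division was drawn from the peaks themselves and was not tested.

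**Figure D2:**
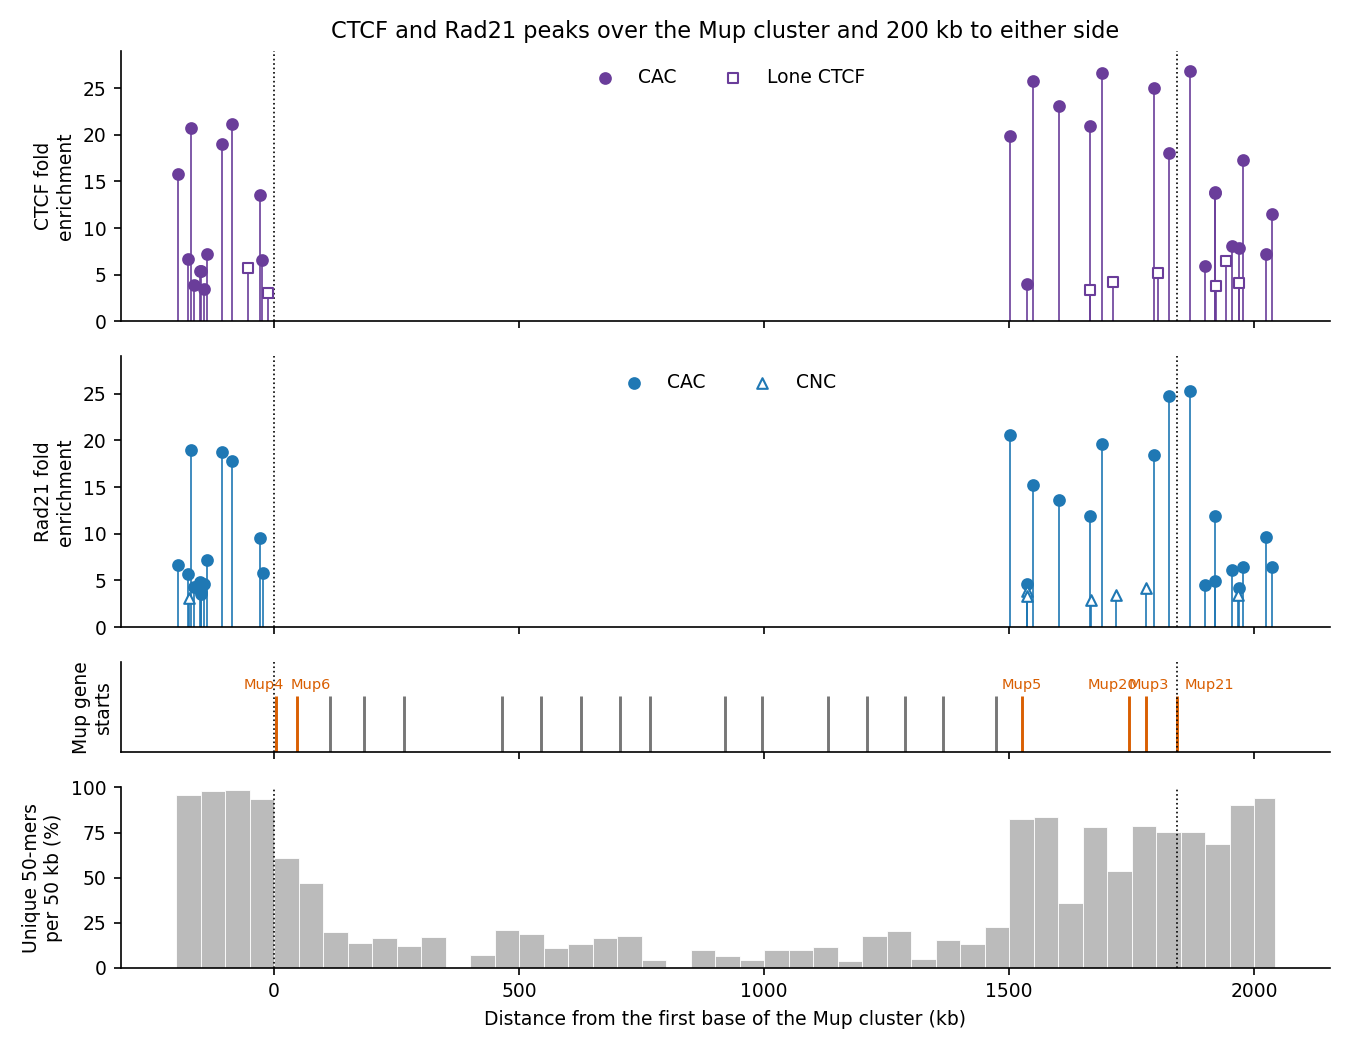
CTCF and Rad21 fold enrichment at each peak summit (upper panels), the starts of the 21 Mup genes (the 6 most divergent ones named, in orange) and the percentage of unique 50-mers per 50 kb bin (lower panel), against the distance in kb from the first base of the cluster. Dotted lines mark the ends of the cluster, and the bins without a bar at about 350 and 800 kb lie mostly in assembly gaps. Peaks stop at the left edge, where the first 2 bins of the cluster are 60.9% and 46.9% unique, and resume near 1500 kb, where the unique share rises to 82.7%.

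The cluster and its flanks were cut into 45 bins of 50 kb, the last one shorter, and 2 bins with under 10000 known 50-mers were left out. Of the other 43, the 26 bins with under 30% unique 50-mers held 0 peaks of either factor. The other 17 bins held all 37 CTCF and all 37 Rad21 peaks, and 14 of them had at least 1 peak of each list. The 3 without a peak were the first 2 bins of the cluster, at 60.9% and 46.9% unique, and the bin from 1550 to 1600 kb, at 83.6%. The rank correlation (Spearman) across bins was 0.774 for CTCF and 0.774 for Rad21, and Pearson's r was 0.830 and 0.778. These are descriptions of neighbouring bins of the same pooled lists.

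The distal peaks fell into strong and weak ones. Of the 11 CTCF peaks, 7 were CAC sites with a CTCF motif and had fold enrichments of 18.0 to 26.7, and the other 4 had 3.34 to 5.22. The Rad21 peaks at the same 7 sites had 11.9 to 24.7, and the other 6 had 2.87 to 4.64. The strong CTCF peaks lay between percentiles 86.9 and 99.2 of fold enrichment in the whole CTCF list, and the weak ones between percentiles 16.2 and 43.6. All 24 peaks were intergenic.

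From the Mup5 side outward, the first strong CAC site was chr4:61472183-61472632, 23.9 kb downstream of the Mup5 start, with fold enrichments of 19.9 for CTCF and 20.6 for Rad21. The second was chr4:61519210-61519638, 23.1 kb upstream of that start, with 25.8 for CTCF and 15.3 for Rad21. Mup5, known from salivary glands, thus lay between a pair of strong CAC sites 47.0 kb apart. The next 3 sites lay between Mup5 and Mup20 and held no member between them. They had CTCF fold enrichments of 23.1 at chr4:61570442-61570907, 20.9 at chr4:61634274-61634647 and 26.7 at chr4:61659496-61659842. Their Rad21 fold enrichments were 13.6, 11.9 and 19.6. Mup20, which encodes the male pheromone darcin, and Mup3 lay together in the following interval of 104.95 kb, closed by chr4:61764426-61764796 with 25.01 for CTCF and 18.4 for Rad21. The last strong site of the cluster was chr4:61794753-61795168, with 18.0 for CTCF and 24.7 for Rad21. Mup21 lay between it and the first peak of the right flank, chr4:61838346-61838732, which had the highest fold enrichments of the right flank, 26.8 for CTCF and 25.3 for Rad21.

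Motif direction was mostly the same along these sites. Of the 7 strong sites, 6 had the motif on the minus strand and 1, at chr4:61794753-61795168, on the plus strand. In the left flank 4 of 7 CAC sites with a motif had it on the plus strand, and in the right flank 2 of 5. The plus-strand site of the cluster carried a motif that differed at 5 of 20 positions from that of the first printed site.

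Plus-strand site downstream of Mup21, CTCF peak, chr4:61794921-61794980: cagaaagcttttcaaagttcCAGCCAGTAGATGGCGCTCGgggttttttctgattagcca

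This plus-strand motif and the minus-strand motif past Mup21 faced each other over 43.6 kb with Mup21 between them. On the other side, the last CAC site with a motif in the left flank, chr4:59945613-59946273, had it on the plus strand with a CTCF fold enrichment of 6.59. It faced the minus-strand motif of the first distal site over 1526.55 kb that held the 17 members from Mup4 to Mup19. Loops were not measured in these lists.

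The weak peaks of the distal part included 3 Lone CTCF peaks. The one at chr4:61635267-61635549 had a fold enrichment of 3.34, and the one at chr4:61773312-61773538, on a copy of the shared site, 5.22. The one at chr4:61682094-61682334, with 4.26, was the CTCF peak of the cluster with the lowest unique share, 14.5% of nearby 50-mers. A weak CAC site at chr4:61506126-61506508 was the nearest CTCF peak to Mup5, 9.94 kb upstream of its start, with 3.99 for CTCF and 4.64 for Rad21 and a best motif score of 2.87 bits. The motif threshold was 12.8 bits, a score that 1% of background windows beside peaks reached. A pair of CNC peaks, chr4:61505104-61505334 with 3.82 and chr4:61505690-61505924 with 3.32, lay within 1 kb of it. Between Mup5 and Mup20 lay 2 further CNC peaks, chr4:61637262-61637460 with 2.87 and chr4:61687393-61687704 with 3.48.

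Peak strength did not differ between cluster and flanks past the test's threshold. The median CTCF fold enrichment was 19.9 in the cluster and 7.18 in the flanks, with a difference of mean log2 values of 0.54 ± 0.42 (SE, permutation test, adjusted p = 0.299). For Rad21 the medians were 11.9 and 5.98, with a difference of 0.32 ± 0.38 (SE, permutation test, adjusted p = 0.360). With flanks of 500 kb the CTCF difference was 0.96 (permutation test, adjusted p = 0.0105) and the Rad21 difference 0.62 (adjusted p = 0.0290).

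The share of peaks with both factors did not differ past the threshold for either list. In the cluster 8 of 11 CTCF peaks overlapped a Rad21 peak (72.7%, 95% Wilson interval 43.4 to 90.3), and in the flanks 21 of 26 (80.8%, 62.1 to 91.5), beside 73.8% of autosomal CTCF peaks. The difference of -8.04 percentage points did not pass (two-sided Fisher's exact test, adjusted p = 0.672). Of Rad21 peaks, 8 of 13 in the cluster (61.5%, 35.5 to 82.3) and 22 of 24 in the flanks (91.7%, 74.2 to 97.7) overlapped a CTCF peak, beside 73.4% of autosomal Rad21 peaks. That difference of -30.1 points did not pass either (exact test, adjusted p = 0.145). A CTCF motif stood at 9 of 11 CTCF peaks of the cluster and 15 of 26 of the flanks, where 43.6% of CTCF peaks on even-numbered autosomes had one. For Rad21 the counts were 7 of 13 and 11 of 24, beside 32.7%.

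The flanks held peaks in and around their own genes. In the left flank the CTCF peak with the highest fold enrichment, 21.2, lay in an intron of Snx30, a sorting nexin of endosomes, as a CAC site. The peak nearest to the cluster was a Lone CTCF peak of 3.02, 12.3 kb before its first base. The Rad21 peak with the highest fold enrichment there, 18.9, lay in an intron of 1110054O05Rik. The Rad21 peak nearest to the cluster, 23.5 kb before it, had 5.82.

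In the cluster, CTCF motif matches far outnumbered CTCF peaks. The cluster held 77 motif matches in 1692222 known bases, 9 of them with a CTCF peak. In the flanks, of 200000 known bases each, 8 of 22 matches on the left and 7 of 15 on the right had one. Per known base, matches were thus fewer in the cluster than in either flank. Split by mappability, 8 of the 17 cluster matches with at least 50% unique 50-mers nearby had a CTCF peak, and 1 of the 60 with under 50%. In the part of the cluster inside the peak-free stretch lay 56 matches, of which 4 had at least 50% unique 50-mers and none had a CTCF peak. These 4 scored 13.1 to 14.5 bits, near the threshold, while the 52 others reached 20.4 bits. In the part of the cluster past it 9 of 21 matches had a peak. A match is a description of the letters and does not show binding.

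About as many of these matches belonged to the shared site as did not. In the window 44 matches differed from the motif of the first printed site at no more than 4 of 20 positions, that site included. For 41 of them the 20 bases before the motif also matched those of the first site at 15 or more positions, and these are called copies. The 3 others lay in the flanks and matched at 3 to 6. Both limits were chosen after the sequences were seen. The copies had 14 distinct motifs, and 40 of the 77 matches of the cluster were copies. All 31 copies in the peak-free stretch were on the plus strand and had no CTCF peak. All 9 copies in the distal part of the cluster were on the minus strand, and 7 of them had a CTCF peak, 6 of them with a Rad21 peak. The 2 without a peak had identical motifs and 0% unique 50-mers nearby. In the right flank 1 copy had a peak.

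The division of the copies by mappability depended on the length of sequence used. Of the 9 copies with at least 50% unique 50-mers nearby 8 had a CTCF peak, and of the 32 others 0 had one. With 100-mers, 16 copies had at least 50% unique sequence, of which 8 had a CTCF peak and 8 did not, and the 25 others again had 0. All 8 copies with unique 100-mers and no peak lay in the peak-free stretch.

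**Figure D3:**
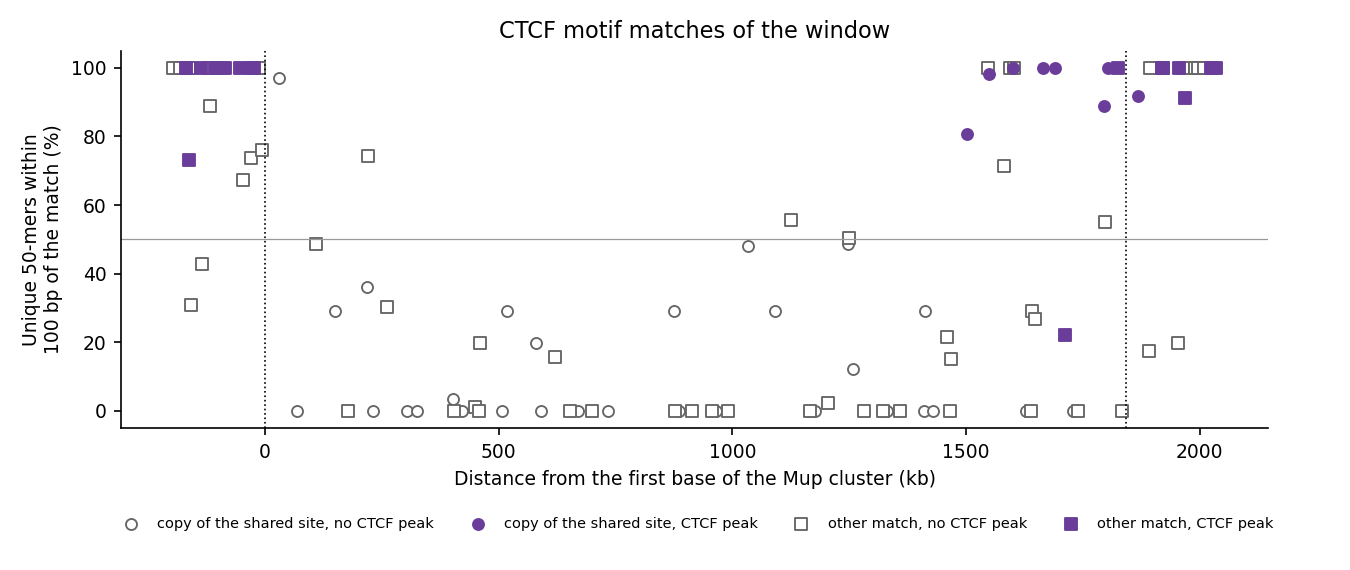
CTCF motif matches in the cluster and flanks by distance from the first base of the cluster (kb) and by the percentage of unique 50-mers within 100 bp. Circles are the 41 copies of the shared site and squares other matches, and filled symbols overlap a CTCF peak. Below the line at 50% 1 of 64 matches is filled, and at or above it 23 of 50.

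Copies of the shared site recurred along the cluster, some of them inside the long gene records of Mup6, Mup2 and Mup15. In the peak-free stretch they were a median of 59.0 kb apart, from 2.44 to 140.79 kb. Measured from the start of each gene's first transcript, the nearest upstream copy was 16.4 to 108 kb away over 17 members, with a median of 35.1 kb, and the nearest downstream copy 21.1 to 45.9 kb over 16 of them, with a median of 34.6 kb. Mup4 had no downstream copy in the window. The 140.79 kb interval and the 108 kb distance, upstream of Mup12, both cross an assembly gap of 50000 bp, in which no copy can be seen. The upstream copy was at 34 to 39 kb for 7 of the 17, and the downstream copy for 7 of the 16. For the 4 distal members the medians were 24.9 and 31.1 kb. Whether the copies keep a fixed distance from the genes was not tested.

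Copies with the same 20 letters occurred both with and without a peak. The motif of the first printed site occurred 6 times in the window and 6 times in the whole genome, with a CTCF peak at 2 copies and none at 4. The share of unique 50-mers was 80.7% and 100% at the copies with a peak, and 0% to 36.3% at those without. The motif upstream of Mup5 occurred 7 times, with a peak at 1 copy, where 98.2% of 50-mers were unique, and none at the 6 others, where 0% to 29.2% were. With 100-mers, 98.3% were unique at 1 of these 6, the printed copy downstream of Mup1. The most frequent motif of the shared site occurred 8 times, always in the stretch, with identical 60-base surroundings and no peak. The copy before the first transcript of Mup6, the last of the printed group, had no peak although 97.1% of the 50-mers within 100 bp were unique, with a score of 14.5 bits. By the 50-mers that span the whole motif, at least 50% were unique at 6 of the 33 copies without a peak and at 7 of the 8 with one.

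At gene starts few peaks were called. None of the 21 Mup genes had a CTCF peak within 1 kb of its start, against 50.9% of autosomal protein-coding genes. By counting alone, 0 of 21 allows a share of up to about 14.3%. For Rad21, 1 of 21 (4.76%) had a peak there, Mup3, against 50.5%. At 16 of the 21 starts under 50% of the 50-mers within 1 kb were unique. At the 5 others, those of Mup4, Mup6, Mup5, Mup3 and Mup21, the unique share was 88.5% to 94.3%, and there CTCF peaks were at 0 starts and Rad21 at 1. These 5 starts are few, and the counts were not tested against the autosomal share. Within 5 kb the counts were still 0 and 1.

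The Rad21 peak upstream of Mup3 was a CNC site at chr4:61748993-61749280, with a fold enrichment of 4.15, a −log10 q of 7.50 and 95.4% unique 50-mers. Its summit lay 774 bp upstream of the Mup3 start. Only 7.34% of autosomal protein-coding genes had a CNC summit at this distance or nearer, so Mup3 stood among the closest, while its nearest CAC summit was 16.2 kb away. At percentile 37.7 of fold enrichment in the Rad21 list it was a weak peak, and it was lost when a −log10 q of at least 10 was asked for. Its 288 bases on the plus strand, which read toward the upstream side of Mup3, are shown with motif matches in capitals.

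Mup3 upstream CNC peak, chr4:61748993-61749280: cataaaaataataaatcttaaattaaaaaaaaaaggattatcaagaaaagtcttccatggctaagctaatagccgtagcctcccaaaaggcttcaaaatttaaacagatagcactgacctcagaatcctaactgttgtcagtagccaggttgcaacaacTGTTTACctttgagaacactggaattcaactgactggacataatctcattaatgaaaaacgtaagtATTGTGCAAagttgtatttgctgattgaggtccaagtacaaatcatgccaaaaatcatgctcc

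Motifs of 4 liver regulators were searched on both strands. The FOXA letters TGTTTAC were found once, starting 776 bp upstream of Mup3 beside the summit. Of 17225 CNC peaks on the autosomes without chromosome 18, 6.76% had them in a summit window of the same length. The C/EBP letters TTGCNNAAT were found once on the minus strand, against 5.17% of CNC windows. The STAT5 letters TTCNNNGAA (9.13% of windows) and the HNF4A letters CAAAGTCCA (2.003%) were not in the peak. STAT5 carries the growth hormone signal to liver genes, and FOXA, C/EBP and HNF4A are factors of liver enhancers.

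The distance to the nearest CAC summit followed the order of the genes. Measured from the annotated gene start, it was 27.8 kb at Mup4, 31.3 kb at Mup6 and 138 kb at Mup7, rose to 736 kb at Mup12, and came down to 29.1 kb at Mup19. From the start of the first transcript it was 70.5 kb at Mup6, and at each of the other members it was within 1.5 times the value from the gene start. It was 9.94 kb at Mup5, 49.4 kb at Mup20, 16.2 kb at Mup3 and 16.9 kb at Mup21. The median of the 21 was 221 kb, and that of autosomal protein-coding genes was 2.09 kb. All 21 members lay at or above percentile 66.3 of autosomal genes, and 14 of them at or above percentile 90. Those 14 all lay in the peak-free stretch, where only 17.0% of 50-mers were unique. Sites there could go unseen, and some of the distances cross assembly gaps. For CNC summits the members ranged from 0.774 kb at Mup3 and 8.98 kb at Mup5 to 830 kb at Mup11. The member median was 325 kb, against an autosomal median of 49.1 kb, and 18 of the 21 lay at or above percentile 50.

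**Figure D4:**
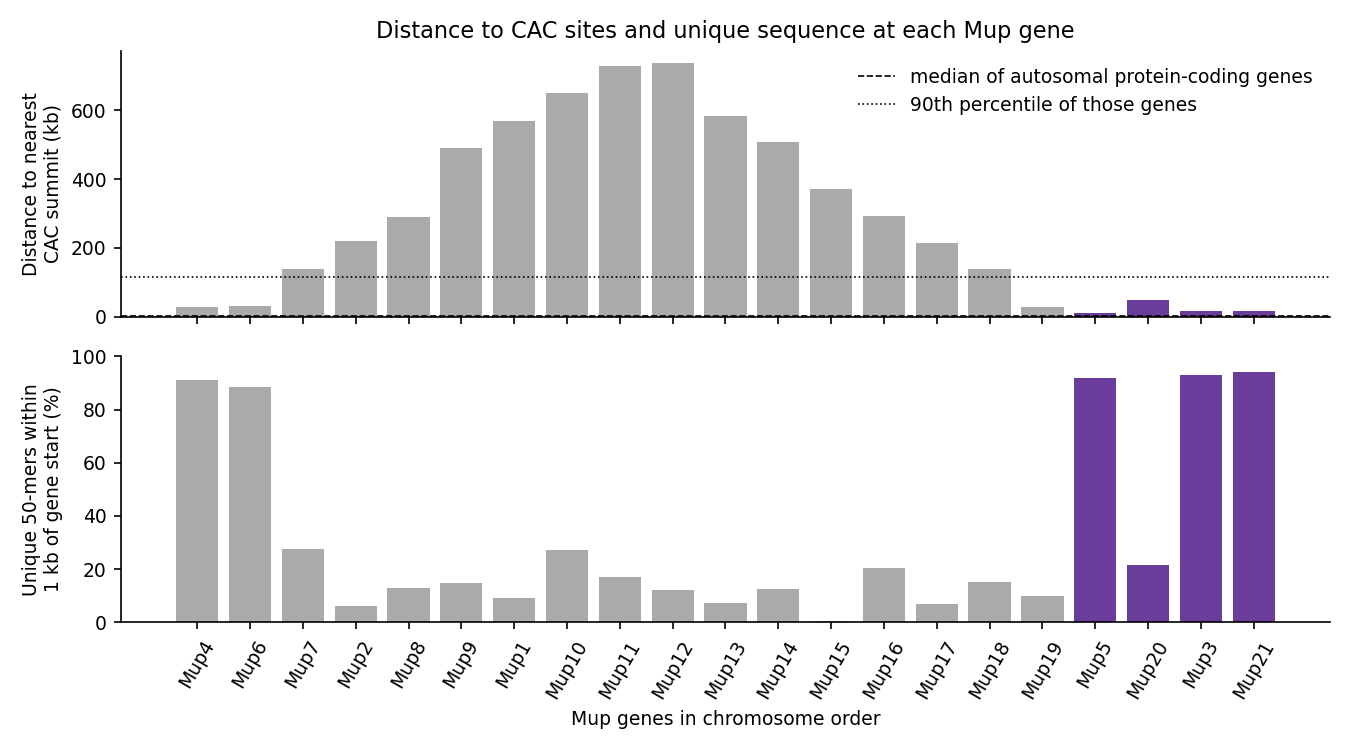
For each of the 21 Mup genes in chromosome order, the distance from the gene start to the nearest CAC summit (kb, upper panel) and the percentage of unique 50-mers within 1 kb of the start (lower panel); grey bars are the 17 genes of the peak-free stretch and purple bars the 4 past it, and lines mark the median and 90th percentile of autosomal protein-coding genes. Distances reach 736 kb at Mup12, and the unique share is over 88% at 5 genes and under 28% at the others.

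The genes with little unique sequence were near-copies of each other. Each of the 16 members with under 50% unique 50-mers in the gene had a coding sequence of 543 to 546 bases, and its best match among the other members was 91.4% to 99.8% identical. The lowest of these, 91.4%, was Mup20. Mup20 also differed from the other low-share genes in the number of copies, since the median 50-mer around its start occurred 2 times in the genome against 8 to 10 times for the rest. The best match of the 5 others was 91.9% to 94.8%. Mup3 and Mup21 were each other's best match at 94.8%, and Mup4 and Mup5 at 92.1%. The gene records of Mup6, Mup2 and Mup15 are each over 10 kb long, and those of Mup6 and Mup2 start over 10 kb from the start of their first transcript, but both starts gave the same counts of promoters with a peak.

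Other liver lipocalins and the regulators of these genes are given beside the members, with no test of the difference, since only 5 of the 21 Mup starts lay in mostly unique sequence. Of 10 other lipocalin genes, 5 had a CTCF peak and 5 a Rad21 peak within 1 kb of the start, close to the autosomal 50.9% and 50.5%. The acute-phase gene Orm2, on the same chromosome, had a CAC summit 0.061 kb from its start, and Rbp4, the carrier of retinol, had one at 0.217 kb. Their median distance to a CAC summit was 3.97 kb. Of 12 regulators of growth hormone response and liver identity, 10 had CTCF at the start and 10 had Rad21. The growth hormone receptor gene Ghr had a CAC summit 0.011 kb from its start, Stat5b 0.288 kb, and the hepatocyte factor Hnf4a 0.110 kb. Bcl6 and Foxa2 were the 2 without a peak at the start, with nearest CAC summits at 2.45 and 1.71 kb.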

How the data were processed

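CTCF and Rad21 ChIP-seq data of female mouse liver were analysed from 2 lists of pooled peaks. Per the labels and the study's methods, the authors used Bowtie2 against mm9, discarded reads with several places, combined the libraries of an antibody for MACS2, and dropped blacklisted peaks and those of identical reads. Each deposited list gives fold enrichment (a ratio over background), −log10 p and −log10 q values, a score derived from the q-value, and the summit offset. No column belongs to 1 library.

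Genes came from the annotation of NCBIM37 (mm9). For densities a peak was counted by its summit, and at gene starts by overlap with the 1 kb to either side. CAC sites shared at least 1 bp. All 36-, 50- and 100-mers were counted exactly over the genome (numba 0.67.0), and 50-mers with up to 2 mismatches on chromosome 4 with bwa 0.7.19. A position weight matrix of 20 bp was learned from 1000 CTCF peaks of odd-numbered autosomes. Densities were compared by an exact binomial test, log2 fold enrichments by 100000 permutations and shares by Fisher's exact test (scipy 1.17.1), with Benjamini-Hochberg adjustment over 2 factors. The tests were tested on simulated data. Peaks of a list are neighbours, not replicates, so intervals cover counting only. Coding sequences were compared by global alignment (biopython 1.88).

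Every gene of the rule was accounted for. Named peaks were all those of the cluster and, per flank and list, the one nearest to the cluster and the strongest. The other lipocalins and regulators were listed by known function. Members and lists were chosen with earlier results of these data known.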

Additional observations from a re-analysis of the deposited data

How the results depend on the processing

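The densities per known base kept their direction and their side of the threshold under stricter peak filters, other flank lengths and counting by overlap. Using the span of the protein-coding genes could not change a value, since all members are protein-coding. Per unique 50-mer, flanks of 100 kb left ratios of 0.396 for CTCF (exact test, adjusted p = 0.0877) and 0.669 for Rad21 (adjusted p = 0.446), and 50-mers unique with up to 2 mismatches left 0.674 and 0.863, all no longer past the threshold. The difference in log2 fold enrichment rose to 0.96 for CTCF and 0.62 for Rad21 with flanks of 500 kb, past the threshold, and turned to -0.16 for Rad21 with flanks of 100 kb. With summits within 100 bp as the rule for both factors, the difference in share of CTCF peaks turned to 7.34 percentage points. With a −log10 q of at least 10, 0 members had a Rad21 peak at the promoter. The cause was not tested for these. The start of the first transcript, added after the data were seen, changed neither promoter count, and moved the distance to the nearest CAC summit by over 1.5 times at Mup6 alone of the 21 members, to 70.5 kb. No paired analysis was possible because the deposited lists pool the libraries of each antibody, and for the same reason no library could be left out. The depth of single libraries and their read length bound what an absent peak can show: a region without a peak, in sequence where few reads can be placed, may still be bound.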
